A study of Macaca fascicularis with 8 samples.

Results

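Integrins and laminin chains were compared between primed and dome-shaped embryonic stem cells of the cynomolgus monkey (Macaca fascicularis). The set was given as 30 genes, namely 13 integrin alpha subunits, 7 integrin beta subunits and 10 laminin chains. Each gene was taken from the row that the deposited table named for it, or else from the row whose best protein match named its protein at 85% identity or more, and from the row with the highest mean where several did so. This found 29 of the 30 genes among 33121 rows, 9 by the table's own name and 20 by the protein match. LAMA4 had no row by this rule.

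The primed cells (4 libraries) grew as flat colonies in CESM medium, a mixture of a commercial human stem cell medium with conventional monkey ESC medium, and are labelled weak in single-cell passage. The dome-shaped cells (4 libraries) grew in NHSMV medium and are labelled strong in single-cell passage. That medium held LIF (10 ng per ml), bFGF (8 ng per ml), TGF-β1 (1 ng per ml), insulin (12.5 µg per ml) and vitamin C (50 µg per ml). It also held the kinase inhibitors PD0325901 (1 µM, against MEK), CHIR99021 (3 µM, against GSK3), SB202190 (5 µM) and SB203580 (10 µM), both against p38, and SP600125 (10 µM, against JNK). Medium and colony shape coincide and cannot be told apart. The labels do not say whether the libraries of a group came from separate cultures or animals, so p-values measure the spread between these libraries. Their titles carry a number after CES, which the labels do not explain. Dome-shaped replicates 1 and 2 share the number 1 and primed replicates 3 and 4 the number 3, so 4 libraries of a group carry 3 numbers and may not be 4 independent sources. The titles of dome-shaped replicates 1 and 2 differ only in a further mark, which the labels do not explain either. Those of primed replicate 4 and dome-shaped replicate 4 differ only in the final letter. Whether such libraries share a source is not stated.

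Integrins are cell surface receptors made of 1 alpha and 1 beta subunit, and the alpha subunit largely sets which matrix protein the pair binds. Laminins are trimers of an alpha, a beta and a gamma chain that polymerise into basement membranes, and their names list the chains in that order. Pluripotent stem cells attach to laminin, above all through the pair of ITGA6 and ITGB1, and the laminins built on LAMA5 and LAMA1 are the forms best known from early embryos.

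Most integrin and laminin genes did not pass the test between primed and dome-shaped cells, while 1 laminin alpha chain rose and 1 laminin-binding integrin alpha subunit fell. LAMA1, the alpha chain of laminin-111, rose from 10.5 ± 0.524 to 19.1 ± 4.63 RPKM (reads divided by the length of the gene and the depth of the library; SD, n = 4 each). ITGA3, which pairs with ITGB1 to bind laminins with the LAMA3 or LAMA5 chain, fell from 6.85 ± 1.28 to 2.86 ± 0.897 RPKM. Of the 29 genes with a row, 17 reached 1 RPKM in 4 libraries or more and were tested. With limma on log2(RPKM + 1), and p-values adjusted by Benjamini and Hochberg's method across the whole table of 15597 tested genes (calls at 0.05), 1 of the 17 was called higher and 1 lower, 11.8% together, against 14.3% of all genes tested (6.38% higher, 7.96% lower). The 2 groups did not overlap for the same 2 genes, 11.8% of the 17, against 22.2% of all genes tested (11.5% with every dome-shaped library above, 10.7% with every one below). The median log2 difference was 0.01 over the 17 genes and 0.03 over all genes tested, with 9 of the 17 above 0 and 8 below. With 17 genes, either share rests on 2 genes, so its distance from the share of all genes is not read as a result.

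**Figure D1:**
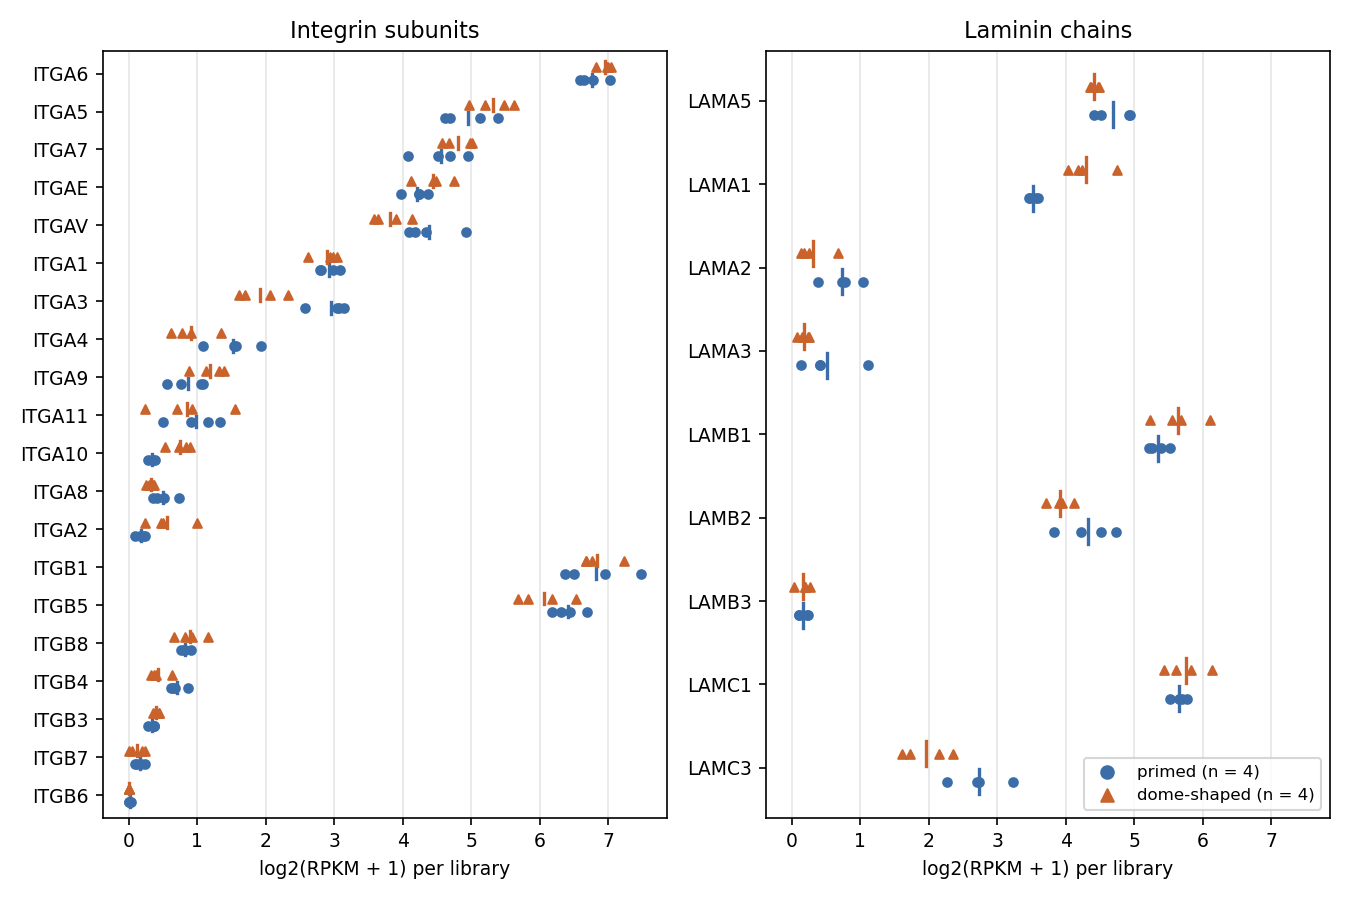
Level of each integrin subunit (left) and laminin chain (right) that had a row, as log2(RPKM + 1) on the x axis, in 4 primed (circles) and 4 dome-shaped (triangles) libraries; vertical ticks mark group means. ITGA6, ITGB1 and ITGB5 lie far to the right in both groups, and only ITGA3 and LAMA1 among the tested genes show groups that do not overlap.

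The libraries held 14400000 to 18080000 reads, as implied by the steps of the low RPKM values, and 15141 to 15830 genes at 1 RPKM or more. Dome-shaped replicate 4 stood apart on the first principal component (49.3% of the variance), with a score of 9.92 against 40.7 to 41.1 in its group and -37.0 to -28.6 in primed cells, so results are also given without it. All 10 pluripotency markers had a row and at least 1 RPKM in some library, and their summed level was 2943 to 3552 in primed and 1915 to 2967 RPKM in dome-shaped libraries, with 6 of 10 called lower. The summed level of 10 epithelial markers was 888 to 1030.2 in primed and 206 to 369.9 RPKM in dome-shaped libraries, and all 10 were called lower, 1 of which passed the filter through the primed libraries alone. Of 7 tested mesenchymal markers 3 were called higher (ZEB1, TWIST1 and VIM), with sums of 97.7 to 437 in primed and 585 to 986 RPKM in dome-shaped libraries. Endothelial markers summed to 12.2 to 23.9 in primed and 32.3 to 38.0 RPKM in dome-shaped libraries, with 1 of 4 tested called higher. The gene called was TEK, which rose from 1.53 ± 1.52 to 20.6 ± 3.23 RPKM and gave most of the dome-shaped sums. CDH5, ESAM and EGFL7 were not called, the first 2 higher and EGFL7 lower in mean. Muscle markers summed to 106 to 219 and 178 to 299 RPKM, with 1 of 3 tested called higher (DES) and 1 lower (TNNT2). Most of these sums was DES and ACTC1. MYOD1, MYOG, MYF5, MYH7 and TTN, 5 of the 8, were under 1 RPKM in every library. Of all genes tested, 6.38% were called higher and 7.96% lower. The part of these shifts in the results below was not tested. Fibroblast markers summed to 293 to 1246 in primed and 576 to 888 RPKM in dome-shaped libraries, with the highest sum in primed replicate 1. Most of that sum was TAGLN, and primed replicate 1 was also the highest in COL1A2 (53.3 RPKM) and THY1 (52.2 RPKM). The other listed fibroblast markers were highest elsewhere. Among primed libraries alone, replicate 1 was also the highest in COL3A1 (3.91 against 0.0577 to 0.321 RPKM) and ACTA2 (5.32 against 2.96 to 3.52 RPKM). The same held for the mesenchymal marker VIM (357 against 52.4 to 76.8 RPKM). COL1A1 was at its lowest in primed replicate 1 (0.144 RPKM), LUM was highest in primed replicate 3 (11.8 RPKM) and FBLN1 in dome-shaped replicate 1 (100 RPKM). Of the 7 tested fibroblast markers, ACTA2 was called higher (limma adjusted p = 0.0333) and PDGFRB lower (limma adjusted p = 0.0247), and 3 of the 12, DCN, POSTN and FAP, were under 1 RPKM in every library.

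The laminin-binding integrins were led by ITGA6, the alpha subunit by which stem cells hold on to laminin-511. ITGA6 stood at 129.8, 109, 95.2 and 99.9 RPKM in primed replicates 1 to 4 and at 126, 112, 126 and 132 RPKM in dome-shaped replicates 1 to 4. The groups overlapped, and the log2 difference of 0.20 (SE 0.10, 95% interval -0.03 to 0.43) was not called by limma (adjusted p = 0.215). Within each library, ITGA6 made up 47.1% to 55.4% of the RPKM summed over the 13 alpha subunits, more than any other.

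ITGA7, a laminin receptor best known from muscle, stood at 15.96, 25.0, 21.9 and 30.01 RPKM in primed and at 22.9, 24.7, 30.6 and 31.3 RPKM in dome-shaped libraries. The lowest value was that of primed replicate 1 and the remaining libraries overlapped (log2 difference 0.25, SE 0.18, limma adjusted p = 0.385). The table names this row ITGA7, although its best protein match had only 76.2% identity.

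ITGA3 stood at 7.84, 7.23, 4.97 and 7.36 RPKM in primed and at 3.99, 2.05, 2.24 and 3.16 RPKM in dome-shaped libraries. Every dome-shaped library lay below every primed one, and the closest values were 4.97 RPKM in primed replicate 3 and 3.99 RPKM in dome-shaped replicate 1. The log2 difference was -1.04 (SE 0.20, 95% interval -1.49 to -0.58, limma adjusted p = 0.0122), and without dome-shaped replicate 4 it was -1.08 (SE 0.22, limma adjusted p = 0.0137). Behind these values stood an implied 133 to 583 reads per library. In bulk RNA, fewer cells that express a gene and less RNA per cell cannot be told apart. ITGA3 made up 2.46% to 3.58% of the summed alpha subunit RPKM in primed and 0.909% to 1.602% in dome-shaped libraries. Epithelial markers, which share the direction of ITGA3, were lower in the same libraries (206 to 369.9 RPKM against 888 to 1030.2 RPKM in sum), and their part in its fall was not tested.

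ITGB1, the beta subunit shared by most of these receptors, did not differ between the groups beyond its spread. It stood at 178, 89.5, 123 and 81.8 RPKM in primed and at 102, 149.8, 107 and 101 RPKM in dome-shaped libraries. The highest values were those of primed replicate 1 and dome-shaped replicate 2, and the groups overlapped throughout (log2 difference 0.01, SE 0.24, 95% interval -0.52 to 0.54, limma adjusted p = 0.982). The row covers only 78 residues of the protein. A second row that later protein matches name as ITGB1, aligned over 671 residues, stood at 176 ± 59.5 and 167 ± 27.2 RPKM (log2 difference -0.03, SE 0.21, limma adjusted p = 0.947).

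ITGB4, which pairs only with ITGA6 and anchors epithelia through hemidesmosomes, was below the filter. It stood at 0.531 to 0.824 RPKM in primed and at 0.248 to 0.541 RPKM in dome-shaped libraries, 0.111% to 0.507% of the RPKM summed over the 7 beta subunits. A second ITGB4 row, also below the filter, stood at 0.322 ± 0.211 and 0.0469 ± 0.0178 RPKM, with every dome-shaped library below every primed one. PLEC and DST, whose plectin and dystonin link ITGB4 to the cytoskeleton, were both called lower. PLEC fell from 21.3 ± 3.55 to 10.9 ± 2.30 RPKM (log2 difference -0.91, limma adjusted p = 0.00946) and DST from 36.4 ± 3.57 to 25.4 ± 2.98 RPKM (log2 difference -0.50, limma adjusted p = 0.0179). DST was singled out after its values were seen.

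**Figure D2:**
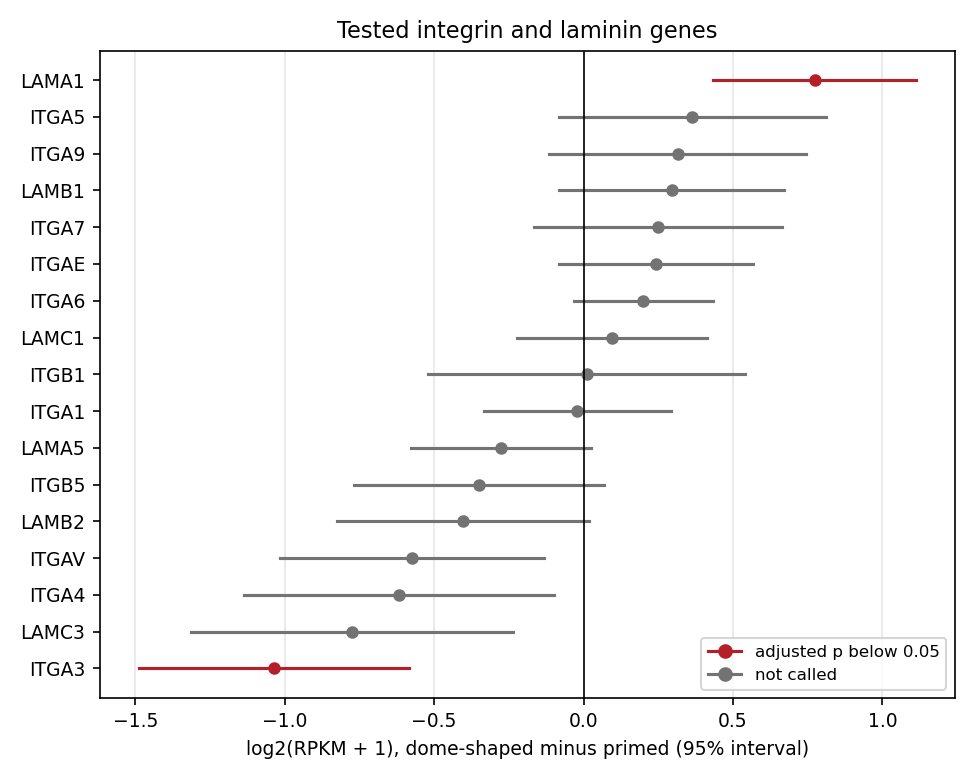
Difference between dome-shaped and primed libraries in log2(RPKM + 1) for the 17 tested genes (x axis), with 95% intervals from limma; red marks genes with an adjusted p below 0.05. LAMA1 at 0.77 and ITGA3 at -1.04 are the ends of the range and the 2 genes called.

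Of the receptors for the RGD motif of fibronectin and related ligands, none was called. ITGA5, the alpha subunit of the classical fibronectin receptor, stood at 41.1, 24.8, 34.1 and 23.5 RPKM in primed and at 48.3, 36.0, 43.8 and 30.5 RPKM in dome-shaped libraries. The groups overlapped (log2 difference 0.36, SE 0.20, limma adjusted p = 0.241). ITGAV, the alpha subunit of the vitronectin receptors, stood at 29.3, 16.1, 19.3 and 17.2 RPKM in primed and at 10.997, 16.5, 11.4 and 13.99 RPKM in dome-shaped libraries. Only dome-shaped replicate 2 reached into the primed range, and the log2 difference of -0.57 (SE 0.20, 95% interval -1.02 to -0.13) missed the threshold (limma adjusted p = 0.0814). Primed replicate 1 held the highest ITGAV value as well as the highest fibroblast marker sum, most of which was TAGLN. Without primed replicate 1 the log2 difference of ITGAV was -0.40.

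ITGB5, the vitronectin-binding partner of ITGAV, stood at 103, 85.7, 71.6 and 78.8 RPKM in primed and at 55.8, 71.6, 50.5 and 92.0 RPKM in dome-shaped libraries. Dome-shaped replicate 4 lay within the primed range, well above the other dome-shaped libraries (log2 difference -0.35, SE 0.19, limma adjusted p = 0.229). Without that library the log2 difference was -0.51 (limma adjusted p = 0.0527). ITGB5 was far above the alternative partners of ITGAV. ITGB3 stood at 0.213 to 0.363 RPKM and ITGB8, which activates latent TGF-β together with ITGAV, at 0.578 to 1.22 RPKM. ITGB6 was listed at 0 in 6 of the 8 libraries and at no more than 0.0265 RPKM in the other two. ITGA8, a receptor for nephronectin, stood at 0.272 to 0.668 RPKM in primed and at 0.192 to 0.287 RPKM in dome-shaped libraries.

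Among the collagen receptors ITGA1 alone was tested. It stood at 7.48, 5.995, 6.93 and 5.91 RPKM in primed and at 6.92, 5.15, 6.65 and 7.24 RPKM in dome-shaped libraries. These groups overlapped almost fully (log2 difference -0.02, SE 0.14, 95% interval -0.33 to 0.29, limma adjusted p = 0.936). ITGA2, the other widely expressed collagen receptor, stood at 0.174, 0.123, 0.159 and 0.0686 RPKM in primed and at 0.411, 0.998, 0.390 and 0.179 RPKM in dome-shaped libraries. Its groups did not overlap, but primed replicate 1 and dome-shaped replicate 4 nearly met. ITGA10, a collagen receptor known from cartilage, stood at 0.280, 0.260, 0.299 and 0.208 RPKM in primed and at 0.662, 0.792, 0.853 and 0.443 RPKM in dome-shaped libraries, again with no overlap. Neither gene passed the filter. In a fit with no filter, limma called ITGA10 higher (log2 difference 0.41, SE 0.10, adjusted p = 0.0395) and did not call ITGA2 (log2 difference 0.38, SE 0.15, adjusted p = 0.158). ITGA11 stood at 0.413, 1.22, 1.53 and 0.884 RPKM in primed and at 0.620, 1.94, 0.886 and 0.178 RPKM in dome-shaped libraries, where the lowest and the highest value of all 8 were both found.

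The remaining alpha subunits have varied ligands. ITGA4, the receptor for VCAM1 and an alternative segment of fibronectin, stood at 2.81, 1.91, 1.96 and 1.11 RPKM in primed and at 0.868, 0.528, 0.717 and 1.55 RPKM in dome-shaped libraries. Dome-shaped replicates 1 to 3 lay below every primed library and replicate 4 did not. The log2 difference of -0.62 (SE 0.23) was not called with all libraries (limma adjusted p = 0.104). Without dome-shaped replicate 4 it was -0.76 (SE 0.22). Every dome-shaped library left in that fit was under 1 RPKM. ITGA4 thus passed the filter there through the primed libraries alone and had to differ, so that test is not given. ITGA9, a tenascin and osteopontin receptor, stood at 0.469, 1.08, 0.696 and 1.12 RPKM in primed and at 1.49, 1.62, 1.18 and 0.846 RPKM in dome-shaped libraries. Here too replicate 4 alone among dome-shaped libraries lay within the primed range (log2 difference 0.31, SE 0.19, limma adjusted p = 0.292).

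ITGAE, the alpha subunit by which T cells bind E-cadherin, stood at 19.8, 17.8, 14.7 and 17.9 RPKM in primed and at 25.9, 21.3, 20.8 and 16.5 RPKM in dome-shaped libraries. The groups overlapped (log2 difference 0.24, SE 0.14, limma adjusted p = 0.278). These values come from a row of the authors' own numbering that aligns with 144 of 956 residues, while the other ITGAE row, aligned over 555 residues, stood at 0.277 ± 0.131 and 0.132 ± 0.115 RPKM. The level of ITGAE is therefore uncertain. ITGB7, its partner and a leukocyte subunit, was at 0.183 RPKM or less in every library. The 7 of 8 leukocyte markers with a row summed to 2.85 to 12.99 in primed and 1.14 to 1.96 RPKM in dome-shaped libraries. LCP1 gave most of the primed sums, at 1.604 to 11.1 RPKM, and was the only one tested (not called, limma adjusted p = 0.109). PTPRC, which marks all leukocytes, was at 0.0520 RPKM or less, and ITGAM was at 0 in 7 of the 8 libraries. The part of leukocyte RNA in the results was not tested.

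Among the laminin alpha chains, LAMA1 rose and no other was called. LAMA1 stood at 10.9, 10.2, 11.1 and 10.0 RPKM in primed and at 25.8, 17.9, 17.2 and 15.4 RPKM in dome-shaped libraries. Every dome-shaped library lay above every primed one, with dome-shaped replicate 1 the highest and replicate 4 the lowest of its group. The log2 difference was 0.77 (SE 0.15, 95% interval 0.43 to 1.11, limma adjusted p = 0.0122), and without dome-shaped replicate 4 it was 0.86 (SE 0.15, limma adjusted p = 0.00720). Behind these values stood an implied 331.98 to 825.8 reads per library. The row aligns with 664 of 3079 residues. A second row, which only later matches name as LAMA1 and which aligns over 217 residues, stood at 21.9 ± 2.37 and 39.1 ± 10.4 RPKM with no overlap (log2 difference 0.78, SE 0.17, limma adjusted p = 0.0178), a call lost without primed replicate 2 (limma adjusted p = 0.0550). Both rows come from the same libraries, so the second adds no independent sample.

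Primitive and parietal endoderm secrete laminin-111, and all 8 of their markers had a row. Of the 7 tested, limma called FOXA2 lower and no other, against 7.96% of all genes tested called lower. Their summed level, most of it SPARC, was 233 to 403 in primed and 288 to 336 RPKM in dome-shaped libraries. SOX17 ran from 1.33 to 24.5 RPKM in primed and from 0.409 to 13.5 RPKM in dome-shaped libraries, and the part of such cells in the rise of LAMA1 was not tested.

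LAMA5, the alpha chain of laminin-511 and laminin-521, stood at 20.3, 29.5, 21.8 and 29.5 RPKM in primed and at 19.7, 19.4, 21.2 and 21.4 RPKM in dome-shaped libraries. Primed replicates 2 and 4 were above all others and the rest overlapped (log2 difference -0.28, SE 0.13, 95% interval -0.58 to 0.03, limma adjusted p = 0.192). This row aligns with only 166 of 3657 residues. A pair of further rows with later matches to LAMA5 stood at 62.6 ± 11.1 and 49.4 ± 3.22 RPKM (limma adjusted p = 0.110) and at 74.1 ± 11.9 and 63.8 ± 7.09 RPKM (limma adjusted p = 0.287) in primed and dome-shaped libraries. Rows of LAMA5 thus differ several-fold in level, and its level relative to LAMA1 depends on the row.

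**Figure D3:**
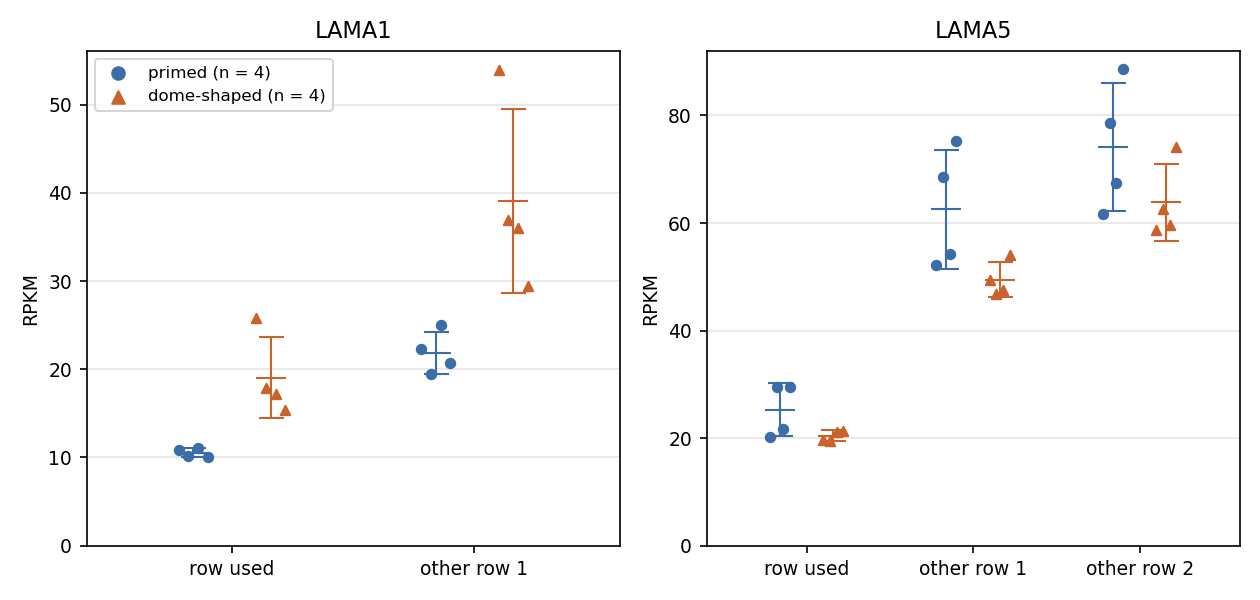
RPKM of LAMA1 (left) and LAMA5 (right) in each primed (circles) and dome-shaped (triangles) library, for the row used and for the other rows matched to the same protein; horizontal bars give the mean and whiskers 1 SD (n = 4). Both LAMA1 rows show dome-shaped above primed libraries with no overlap, and all 3 LAMA5 rows show overlapping groups.

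LAMA1 made up 34.9%, 25.6%, 33.8% and 25.3% of the sum of LAMA1 and LAMA5 RPKM in primed and 56.7%, 48.0%, 44.8% and 41.8% in dome-shaped libraries. The groups did not overlap. Over the other pairings of the LAMA1 and LAMA5 rows the share ranged from 10.2% to 53.5% in primed and from 17.2% to 73.3% in dome-shaped libraries, and within each pairing the groups did not overlap. This share rests on the called rise of LAMA1, and no test was run on it.

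LAMA2 and LAMA3 were low. LAMA2, the chain of muscle and nerve laminins, stood at 0.301 to 1.06 RPKM in primed and at 0.0937 to 0.590 RPKM in dome-shaped libraries. LAMA3, the chain of epithelial laminin-332, stood at 0.0918 to 1.16 RPKM in primed and at 0.0522 to 0.184 RPKM in dome-shaped libraries. Both ranges overlapped. The row nearest to LAMA4, the chain of vascular and mesenchymal laminins, matched it at 83.7% identity over 92 residues and stood at 2.90 ± 2.01 and 2.10 ± 1.34 RPKM (limma adjusted p = 0.674).

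The beta and gamma chains were led by LAMB1 and LAMC1, which most laminins share. LAMB1 stood at 37.5, 40.8, 45.1 and 36.2 RPKM in primed and at 67.9, 50.6, 45.8 and 36.6 RPKM in dome-shaped libraries. Dome-shaped replicates 1, 2 and 3 lay above all primed libraries and replicate 4 within them (log2 difference 0.30, SE 0.17, limma adjusted p = 0.257). LAMC1 stood at 49.5, 50.7, 44.8 and 53.4 RPKM in primed and at 69.2, 48.1, 55.9 and 42.2 RPKM in dome-shaped libraries, with overlap on both sides (log2 difference 0.10, SE 0.14, limma adjusted p = 0.680). In dome-shaped libraries LAMA1, LAMB1 and LAMC1 were each highest in replicate 1 and lowest in replicate 4.

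LAMB2, the beta chain that replaces LAMB1 in laminin-521, stood at 13.3, 21.8, 17.6 and 25.6 RPKM in primed and at 12.1, 14.4, 14.004 and 16.5 RPKM in dome-shaped libraries. Primed replicate 1 lay among the dome-shaped values and the other primed libraries above them (log2 difference -0.40, SE 0.19, limma adjusted p = 0.174). Without primed replicate 1 the difference was called (-0.57, limma adjusted p = 0.0447). LAMB3, the beta chain of laminin-332, was at 0.1996 RPKM or less in every library.

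LAMC3, a gamma chain of less widespread laminins, stood at 8.38, 5.64, 3.81 and 5.54 RPKM in primed and at 4.11, 2.29, 2.06 and 3.44 RPKM in dome-shaped libraries. The groups overlapped only in primed replicate 3 and dome-shaped replicate 1. The log2 difference of -0.78 (SE 0.24, 95% interval -1.32 to -0.24) missed the threshold (limma adjusted p = 0.0597) and was called without either of those libraries (limma adjusted p = 0.0465 without primed replicate 3 and 0.0482 without dome-shaped replicate 1). The other two LAMC3 rows had log2 differences of -0.57 and -0.41, neither called.

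Of the 12 genes below the filter, 8 were under 1 RPKM in every library, namely ITGA2, ITGA8, ITGA10, ITGB3, ITGB4, ITGB6, ITGB7 and LAMB3. Over the 12 genes, mean implied reads per library ran from 0.375 for ITGB6 to 71.2 for LAMA2, which limits what could be detected at this depth.

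Integrins were matched to laminins by taking the lowest RPKM among the subunits that a receptor or trimer needs, a description of what the RNA would allow and not of protein. The pair of ITGA6 and ITGB1 had the highest such level among the integrins, 99.1 ± 21.2 in primed and 106 ± 5.09 RPKM in dome-shaped libraries (SD, n = 4 each). The short ITGB1 row set it in primed replicates 2 and 4 and dome-shaped replicates 1, 3 and 4. The longer ITGB1 row lay above ITGA6 in every library. With it ITGA6 would set the level, at 108 ± 15.3 and 124 ± 8.43 RPKM. ITGA5 with ITGB1 stood at 30.9 ± 8.27 and 39.6 ± 7.95 RPKM, limited by ITGA5 in every library. The laminin-binding pair of ITGA7 and ITGB1 stood at 23.2 ± 5.88 and 27.4 ± 4.19 RPKM, limited by ITGA7, and was above the pair with ITGA5 in primed replicates 2 and 4 and dome-shaped replicate 4. The pair of ITGA3 and ITGB1 was limited by ITGA3 in every library, so its level is that of ITGA3 itself. The pair of ITGA6 and ITGB4 was limited by ITGB4 and stayed at 0.824 RPKM or less.

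For the laminins, the trimer with LAMA5, LAMB1 and LAMC1 (laminin-511) had a lowest chain of 25.3 ± 4.96 in primed and 20.4 ± 1.01 RPKM in dome-shaped libraries. With the LAMA5 row used, LAMA5 set it in all 8. Both longer LAMA5 rows lay above LAMB1 in every primed library. The lower of them stood at 52.2, 68.5, 54.3 and 75.2 RPKM there, against 37.5, 40.8, 45.1 and 36.2 RPKM for LAMB1. The laminin-511 level, its limiting chain and its difference between the groups thus depend on the row. The trimer with LAMA1 in its place (laminin-111) had a lowest chain of 10.5 ± 0.524 and 19.1 ± 4.63 RPKM, set by LAMA1 in all 8. With the LAMA1 row used, groups also did not overlap for laminin-121 (LAMA1, LAMB2 and LAMC1), at 10.5 ± 0.524 and 13.97 ± 1.35 RPKM. LAMB2 set that level in dome-shaped replicates 1, 2 and 3. With the second LAMA1 row, LAMB2 was the lowest chain in every dome-shaped library (12.1 to 16.5 RPKM). Primed replicate 1, at 13.3 RPKM, then lay within that range, so the groups overlapped. Groups did not overlap for ITGA2 or ITGA10 with ITGB1, which follow their low alpha subunits. In primed libraries the level of laminin-111 was below that of laminin-511 in all 4, and in dome-shaped libraries it was above it in replicate 1 and below it in replicates 2, 3 and 4. This order depends on the rows. With the second LAMA1 row in place of the first, laminin-111 was above laminin-511 in primed replicates 1 and 3 and in all 4 dome-shaped libraries. With the first LAMA1 row and either longer LAMA5 row it was below in all 8. Laminin-332, the ligand best known for ITGA3 and ITGB4 in skin, was limited by LAMA3 or LAMB3 to 0.184 RPKM or less.

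**Figure D4:**
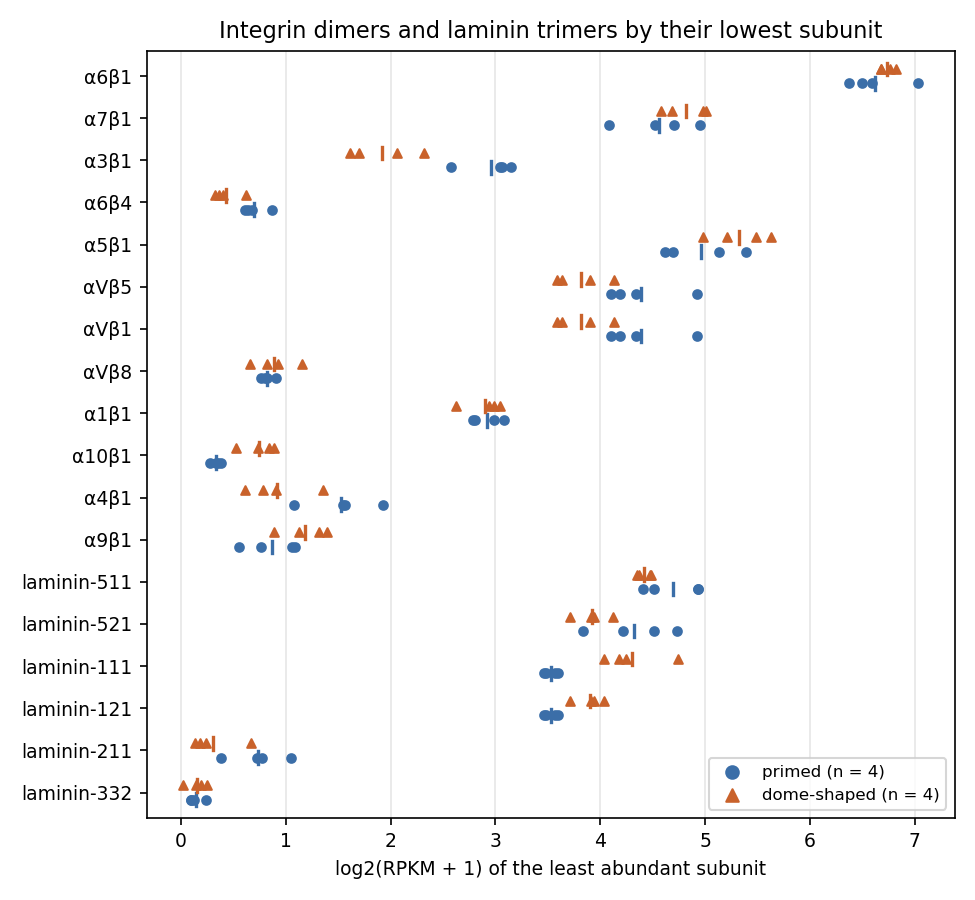
Lowest RPKM among the subunits of each integrin dimer (top) and laminin trimer (bottom) in primed (circles) and dome-shaped (triangles) libraries, as log2(RPKM + 1) on the x axis; ticks mark group means. With the rows used, α6β1 has the highest values of the integrins, and the groups do not overlap for α3β1, α10β1, laminin-111 and laminin-121.

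The laminin matrix also holds proteins that bind laminin or its network. Of 24 tested basement membrane partners and non-integrin laminin receptors (28 of 29 had a row), limma called 6 lower and 0 higher (8 lower and 4 higher at an unadjusted p below 0.05), 25.0% together against 14.3% of all genes tested, with a median log2 difference of -0.21. Without dome-shaped replicate 4 the counts were 7 lower and 3 higher, and without primed replicate 1 they were 6 and 2. The list was chosen with earlier results of these data known, so its share is not read as an excess. HSPG2, the perlecan that links laminin to collagen IV networks, fell from 142 ± 16.4 to 92.0 ± 6.69 RPKM (log2 difference -0.61, SE 0.09, limma adjusted p = 0.00490). SMOC2, a matrix protein related to SPARC, stood at 2.46 ± 0.729 and 0.356 ± 0.278 RPKM. Of the 6 genes called lower, 2, SMOC2 included, passed the filter through the primed libraries alone, so that they had to differ. SDC4, a syndecan that works beside integrins at focal adhesions, fell from 46.6 ± 4.32 to 26.6 ± 5.57 RPKM (log2 difference -0.80, limma adjusted p = 0.00992).

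BCAM and NTN4, named after their values were seen, were also called lower. BCAM, a receptor for the LAMA5 chain, fell from 45.9 ± 12.9 to 17.6 ± 8.25 RPKM (limma adjusted p = 0.0272), a call lost without primed replicate 2, 3 or 4 or dome-shaped replicate 3 (limma adjusted p up to 0.0742). NTN4, a netrin that binds laminin gamma chains, fell from 8.27 ± 2.81 to 2.69 ± 0.995 RPKM (limma adjusted p = 0.0144). AGRN, the laminin-binding agrin, also named after its values were seen, stood at 165 ± 18.8 and 166 ± 16.2 RPKM.

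Of 30 tested genes of integrin activation and focal adhesion (33 of 35 had a row), 9 were called lower and 3 higher, 40.0% together against 14.3% of all genes tested, with a median log2 difference of -0.11. This list too was chosen with earlier results of these data known, so its share is not read as an excess. PXN, the adaptor paxillin, fell from 97.2 ± 21.2 to 43.7 ± 6.83 RPKM (log2 difference -1.12, SE 0.17, limma adjusted p = 0.00450). Its 4 primed values of 118, 85.3, 112 and 73.5 RPKM all lay above the dome-shaped values of 35.8, 47.0, 40.7 and 51.3 RPKM. TSPAN4, a tetraspanin that associates with integrins, fell from 39.7 ± 6.80 to 24.3 ± 2.15 RPKM (limma adjusted p = 0.00992). LIMS2, a partner of integrin-linked kinase, fell from 8.37 ± 2.33 to 3.11 ± 1.02 RPKM (limma adjusted p = 0.0105). Beside PLEC and DST, the other genes called lower were VCL, ZYX, ACTN4 and CD9, and those called higher were FERMT1, TNS3 and CD81, all named after their values were seen. The 3 higher calls were not stable to single libraries: 0 remained without dome-shaped replicate 2, and 1 was made without dome-shaped replicate 3, primed replicate 2 or primed replicate 4. The lower count ran from 6 to 9 with 1 library left out. The lower calls of VCL, ZYX and CD9 were each lost in at least 1 of these fits (limma adjusted p up to 0.106, 0.100 and 0.0805).

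Of 23 tested other integrin ligands (31 of 33 had a row), 4 were called higher and 2 lower, 26.1% together against 14.3% of all genes tested, with a median log2 difference of -0.02. Without dome-shaped replicate 4 the counts were 6 and 5. Earlier results of these data were known when this list was chosen, so its share is not read as an excess. TNC, the tenascin bound by ITGA9, stood at 0.336, 0.793, 0.494 and 0.553 RPKM in primed and at 10.8, 4.55, 9.19 and 2.38 RPKM in dome-shaped libraries, all above the primed ones. TNC passed the filter through the dome-shaped libraries alone, so that it had to differ, and its test is not given. EMILIN1, an elastic fibre protein that binds ITGA4 and ITGA9, rose from 2.08 ± 0.458 to 7.66 ± 2.36 RPKM (limma adjusted p = 0.00655). SPP1, osteopontin, which ITGAV and ITGA9 bind, stood at 2354, 502, 621 and 258 RPKM in primed and at 26.7, 32.1, 23.3 and 115 RPKM in dome-shaped libraries, where replicate 4 was the highest and still below all primed libraries (limma adjusted p = 0.00743). CDH1, the E-cadherin that ITGAE binds, fell from 91.8 ± 10.6 to 3.02 ± 4.67 RPKM (limma adjusted p = 0.00203).

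The other genes called higher, named after their values were seen, were THBS3 (11.7 ± 1.49 to 21.1 ± 4.41 RPKM, limma adjusted p = 0.0122) and FBN1, the fibrillin of elastic fibres (4.17 ± 0.863 to 9.37 ± 3.04 RPKM, limma adjusted p = 0.0262). The FBN1 call was lost without primed replicate 2 or 4 or dome-shaped replicate 1, 2 or 3 (limma adjusted p up to 0.0712).

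FN1, VTN, NPNT and VCAM1 did not pass the test or were too low for it. FN1, fibronectin, stood at 81.4, 76.1, 204 and 40.7 RPKM in primed and at 217, 126, 116 and 49.0 RPKM in dome-shaped libraries, a spread wider than the difference between the groups (log2 difference 0.39, SE 0.52, limma adjusted p = 0.644). VTN, vitronectin, stood at 1.18 ± 0.911 and 1.23 ± 1.03 RPKM and was not tested. NPNT, the nephronectin that ITGA8 binds, stood at 0.346 ± 0.188 and 0.104 ± 0.104 RPKM. VCAM1, the ligand of ITGA4, stood at 0.132 ± 0.157 and 0.797 ± 1.15 RPKM.

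**Figure D5:**
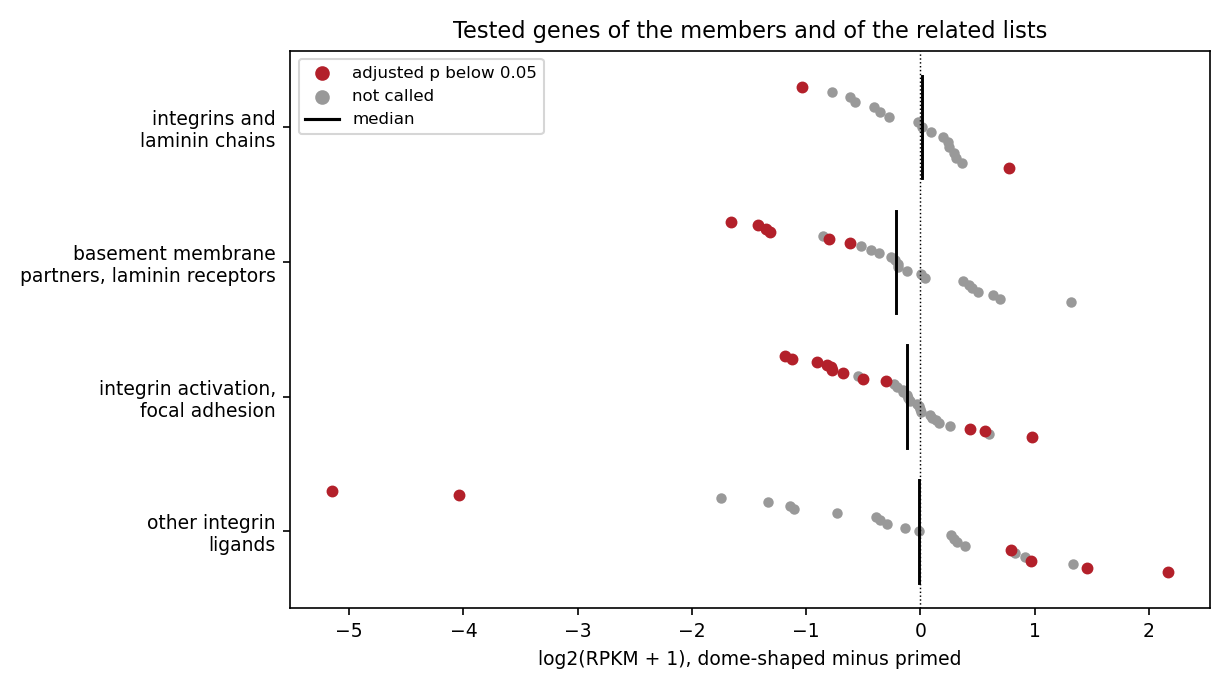
Difference between dome-shaped and primed libraries in log2(RPKM + 1) (x axis) for the tested genes of the integrin and laminin set (17) and of the lists of basement membrane partners (24), integrin activation and focal adhesion (30) and other integrin ligands (23); red points have a limma adjusted p below 0.05 and black bars are medians. The set itself has 2 red points, and the medians lie at 0.01, -0.21, -0.11 and -0.02.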

How the data were processed

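RNA-seq of polyadenylated RNA gave 1 deposited table with RPKM for 8 libraries (4 primed, 4 dome-shaped), a query length and protein matches whose percent identity the authors deposited beside each row. Tools listed in the submitters' processing notes are HTSeq 0.6.1, TopHat2 2.0.9 and Bowtie2 2.0.6; for genome build, annotation and use of strand the entry is "not given in the sources used here". Blank rows (17 of 33138) were left out, and columns of other samples numbered 0. Of the values worth less than 50 reads, 71.6% to 73.5% per library came out whole to within 0.01 (2% by chance), too few for a count test.

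RPKM was compared as log2(RPKM + 1), which understates changes of low genes, with limma 3.58.1 in R 4.3.3 (mean trend, two-sided, no covariates, adjustment over all genes tested), after a filter of at least 1 RPKM in at least 4 libraries. The code was tested on simulated data. Groups came from colony shape in the labels; replicate numbers follow accession order and pair nothing. The members and lists were chosen with earlier results of these data known. Named were all members and, of each list, up to 4 genes with the smallest adjusted p, plus FN1, VTN, TNC, SPP1, NPNT, CDH1 and VCAM1. A gene taken by this rule is not reported here. List genes carry the name in the table, or that of the best protein match through RefSeq accessions (assembly T2T-MFA8v1.1) or protein names paired by hand; near-identical copies may share reads. Tried as alternatives were smaller pseudocounts (0.1, 0.5), omitting the filter or requiring a mean of 5 RPKM, median-of-ratios and quantile scaling, no mean trend, a block by the number after CES in the titles, and leaving out each library.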

Additional observations from a re-analysis of the deposited data

Results flagged for a closer look

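Among 34 groups of 4 tested for a library far from the others, 1 stood out, and chance flags about 1 in 20 groups. ITGB1 was at 149.8 RPKM in dome-shaped replicate 2, against 107.4 RPKM in the next and 101.3 RPKM in the lowest dome-shaped library. The gap to the next library was 0.874 of the group's range and passed Dixon's criterion for 4 values. The longer ITGB1 row was also highest in that library, at 206 RPKM against 148 to 166 RPKM in the other dome-shaped libraries.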

How the results depend on the processing

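LAMA1 and ITGA3 kept their direction and their call in each alternative that tested them, with adjusted p up to 0.0458 and 0.0445 under other settings and up to 0.0405 and 0.0416 with 1 library left out. With no filter the members called higher were 2, since ITGA10 joined LAMA1, and with a filter at a mean of 5 RPKM the members called lower were 0, since ITGA3 was below that mean. With 1 library left out, members called higher numbered 1 in each fit and members called lower 1 to 2, while all genes called ranged from 381 to 1289 higher and from 655 to 1441 lower. Whether the numbers after CES pair the libraries is not known. Correlations of deviations from the group means ran from -0.0975 to 0.125 between primed and dome-shaped libraries with the same number. Between those with different numbers they ran from -0.223 to 0.201, so this check cannot tell. With the replicate block by that number, 1 member was called higher and 1 lower, and of all genes 303 were called higher and 593 lower; of the focal adhesion list 0 were called higher and 5 lower. Differences near 0 changed sign. ITGA1 was 0.0083 under quantile normalization and -0.069 to 0.071 with 1 library left out. ITGB1 was -0.015 under median-of-ratios scaling, -0.12 with the block and -0.14 to 0.23 with 1 library left out. LAMC1 ran from -0.031 to 0.20, the longer ITGB1 row from -0.18 to 0.18 and the row nearest to LAMA4 from -0.54 to 0.014 with 1 library left out. Of the alternatives, the counts over the 3 lists were added after the data were seen. Libraries of 14400000 to 18080000 implied reads leave the 12 members below the filter with few reads. The causes were not tested.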
